A study of Mus musculus with 72 samples.

Results

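The brains of Klotho heterozygous (KlHET) mice after neuromuscular electrical stimulation (NMES) were compared with those of KlHET controls. All brain libraries labelled with this genotype were taken, which gave 12 NMES and 12 control libraries, 24 of the 72 libraries of the series. KlHET mice (strain B6;129S5-Kltm1Lex/Mmucd, bred internally on a mixed background) carried 1 disrupted copy of Klotho, and both groups shared this genotype. NMES mice received a current of 9 mA in 5 sessions held every other day under 2.5% isoflurane, with 2 sets of 10 stimulations on each leg. Control mice received isoflurane alone for 15 min. The tissue was taken 24 h after the last session from mice perfused with buffered saline, and RNA came from a section of 30 mg. The labels give the tissue only as brain, and prefrontal cortex is the region named in the study's methods. The mice were 2 months old. Animal identifiers showed that each library came from a separate mouse. A smaller set of wild-type (WT) brains, 6 NMES and 6 control, entered the same model and served for the comparison of the responses.

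Klotho is a membrane protein that acts as a co-receptor for fibroblast growth factor 23, and its shed part circulates as a hormone. In the brain its transcript is most abundant in the choroid plexus, the epithelium that secretes cerebrospinal fluid. NMES contracts a muscle by an electric current without voluntary effort. The question put to the brain was whether repeated contraction of the legs alters transcripts of a distant organ when Klotho is reduced. Responses of brain tissue to activity usually include immediate early genes, which neurons transcribe within minutes of firing, and glial, vascular and meningeal genes, which change with inflammation and exercise.

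Expression was measured in CPM, the read count of a gene scaled to a common library total. The NMES libraries held 16.966 to 26.475 M reads (median 21.623) and the control libraries 17.093 to 27.341 M reads (median 18.598). Libraries of 1 group differed by far more than sampling noise (chi-square per degree of freedom 7.37 to 127 over 132 pairs), so none appeared to be a duplicate of another. Xist exceeded the Y-linked genes in 8 of 12 NMES and 7 of 12 control libraries, so both sexes were present in each group. That call was the same in the muscle of the same animal in 36 of 36 animals of both genotypes.

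The targeted gene, Kl, lies on chromosome 5 of mm10 from 150952607 to 150993817. It was found at 1.12 to 19.3 CPM in NMES brains (median 2.74) and at 1.93 to 31.1 CPM in control brains (median 2.85). The log2 fold change, NMES minus control, was -0.13 ± 0.41 (SE), and its sign changed in 4 of 18 processing settings. Both groups carry the same disrupted copy, so this comparison does not check the genotype label. Of the 13 measured genes on the list of Klotho partners and FGF receptors, Kl included, 12 lay below 0 (10 without control replicate 7 and NMES replicate 1, which stood apart) and none passed the test. Fgfr1, the main FGF receptor with which Klotho pairs, had 64.8, 77.9 and 116 CPM in NMES brains (lowest, median and highest) and 75.2, 88.5 and 137 CPM in control brains.

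The brain pieces did not hold the same mixture of regions, and this was seen in both groups. Slc17a7, the vesicular glutamate transporter of cortical projection neurons, was abundant in nearly all libraries. It had 961, 1497 and 2026 CPM in NMES brains (lowest, median and highest), against 359, 1584 and 1800 CPM in control brains. Markers of neighbouring regions were present as well and varied far more. Ttr, the transthyretin of choroid plexus, ran from 0.0513 to 895 CPM in NMES brains and from 0.293 to 1822 CPM in control brains, and exceeded 100 CPM in 4 libraries of each group. Oxt, the hypothalamic peptide oxytocin, ran from 0.0562 to 61.6 CPM in NMES brains and from 0 to 112 CPM in control brains, with 2 NMES and 4 control libraries above 20 CPM. Omp, a protein of olfactory sensory axons, ran from 0.136 to 32.5 CPM in NMES brains and from 0.526 to 40.9 CPM in control brains, with 4 NMES and 6 control libraries above 10 CPM. Adora2a, the adenosine receptor of striatal projection neurons, had 6.84, 69.0 and 209 CPM in NMES brains and 3.31, 91.6 and 159 CPM in control brains.

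**Figure D1:**
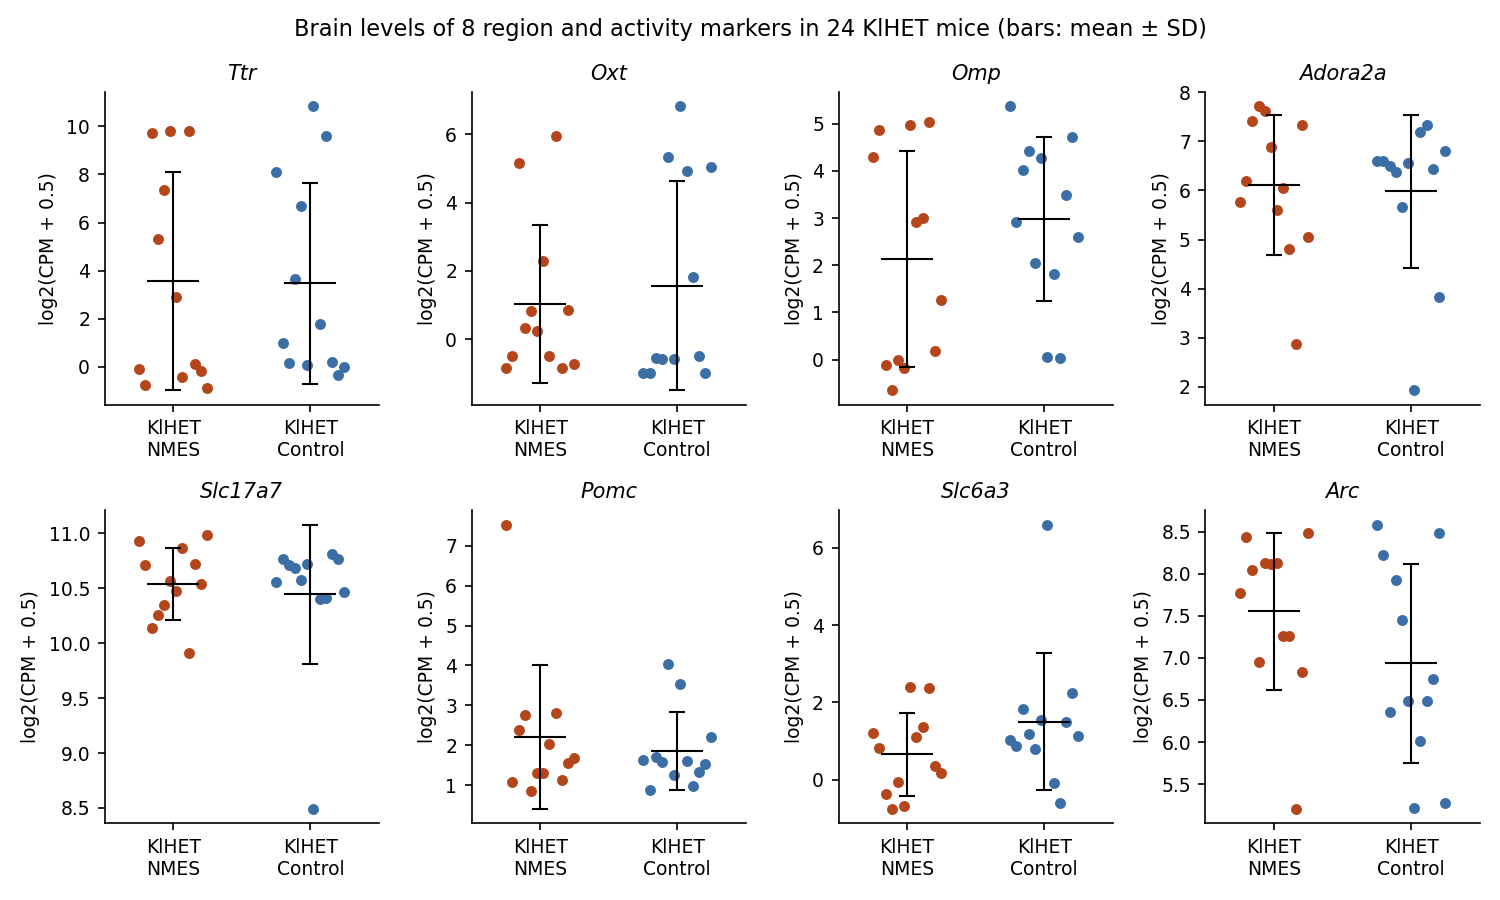
Levels of 8 marker genes in the 12 NMES and 12 control KlHET brains, as log2(CPM + 0.5) on the vertical axis, with 1 point per mouse and a bar for mean ± SD. Ttr, Oxt, Omp and Adora2a spread over many-fold ranges within each group, control replicate 7 lies at the bottom of Slc17a7 and alone at the top of Slc6a3, and NMES replicate 1 lies alone at the top of Pomc.

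Single libraries stood apart. Control replicate 7 had the highest summed CPM of all 24 libraries for 9 of 20 cell type and region lists. In that library Slc17a7 was at 359 CPM, the lowest of the 24. Slc6a3, the dopamine transporter of midbrain neurons, reached 96.4 CPM in that library, whereas the next highest control library had 4.27 CPM and the NMES brains had 0.0904 to 4.75 CPM. NMES replicate 1 held 183 CPM of Pomc, the precursor of pituitary and hypothalamic hormones, whereas the next highest NMES library had 6.54 CPM and the control brains had 1.34 to 16.1 CPM. The pituitary hormones Gh and Prl were at 20.4 and 55.0 CPM in the same NMES library.

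Over the 24 libraries, the first principal component carried 28.4% of the variance and ran between choroid plexus and hypothalamic genes (Ttr, Oxt, Avp, Irs4) and olfactory bulb genes (Ms4a15, Doc2g, Omp, S100a5). The second carried 19.4% and ran between striatal genes (Adora2a, Drd2) and the olfactory bulb genes. Treatment accounted for 0.55% of the first component and 4.25% of the second, and for 0.13 to 5.46% of any of the first 6. For an average gene, treatment accounted for 3.15% of the variance over the libraries, the sex of the animal for 6.34%, the first component for 20.4% and the second for 15.0%. The components were built from these same values to take as much variance as possible, so their shares are not comparable with that of treatment. A label with no effect also takes a share above 0, which was not estimated.

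No gene passed the test between NMES and control brains. Of 15400 genes tested in limma, 0 had a Benjamini-Hochberg adjusted p below 0.05 (0% called), and the smallest adjusted p was 0.464. At an unadjusted p below 0.05 there were 314 genes, 140 higher (0.909% of those tested) and 174 lower (1.13%), where 5% of the genes tested would be 770. edgeR's quasi-likelihood test and DESeq2 on the recovered reads also called 0 genes, with 344 and 345 at an unadjusted p below 0.05. The muscle of the same KlHET mice, tested in the same way, gave 87 called genes of 13505 (0.644%), among them Agt, the angiotensin precursor, which rose by 1.19 ± 0.13 on the log2 scale (limma adjusted p = 4.7e-07).

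The size of change that these brains could show was small for most genes. The median absolute log2 fold change was 0.046 and the median standard error 0.078. The 95% confidence interval of the fold change stayed within 1.5-fold either way for 94.6% of genes and within 2-fold for 99%. Only 3 genes had a fold change beyond 2-fold, none of them past the test. Eomes, a transcription factor of olfactory bulb projection neurons, and Ms4a15, which loaded on the first component beside the olfactory genes, had log2 fold changes of -1.03 and -1.22. The other was Gm8210, at 1.18.

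**Figure D2:**
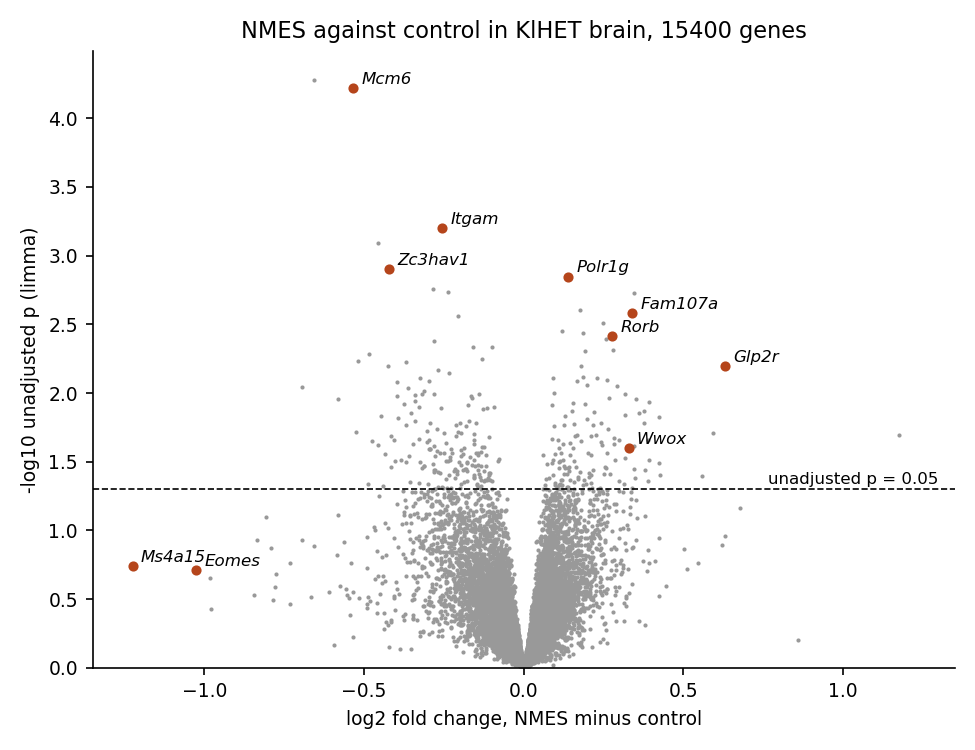
Log2 fold change (NMES minus control, horizontal axis) against -log10 of the unadjusted limma p (vertical axis) for 15400 genes of KlHET brain, with 10 genes of the text in colour and a dashed line at an unadjusted p of 0.05. Mcm6 lies near the top of the plot, whereas Ms4a15 and Eomes combine large fold changes with positions below the line.

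Mcm6 was among the genes closest to the threshold and was lower in NMES brains. Mcm6, a subunit of the helicase that opens DNA for replication (mm10 chromosome 1, 128331590 to 128359664), had 3.14, 5.87 and 10.2 CPM in NMES brains (lowest, median and highest), against 5.42, 8.61 and 12.1 CPM in control brains. The ranges overlapped. Here 10 of 12 NMES libraries lay below the control mean, and the log2 fold change was -0.53 ± 0.12 (SE, n = 12 and 12, limma adjusted p = 0.464). The other MCM genes had fold changes near 0. Mcm2, Mcm3, Mcm4, Mcm5 and Mcm7, the remaining subunits of the same ring, had log2 fold changes of 0.03, -0.03, -0.10, -0.06 and 0.01.

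Mcm6 was called by 1 of the alternative fits. With voom and library quality weights its log2 fold change was -0.63 (adjusted p = 0.036), and it was then the single gene called. In the other 17 settings and in all fits without 1 library it did not pass. Its lowest adjusted p without a library was 0.057, without NMES replicate 7.

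**Figure D3:**
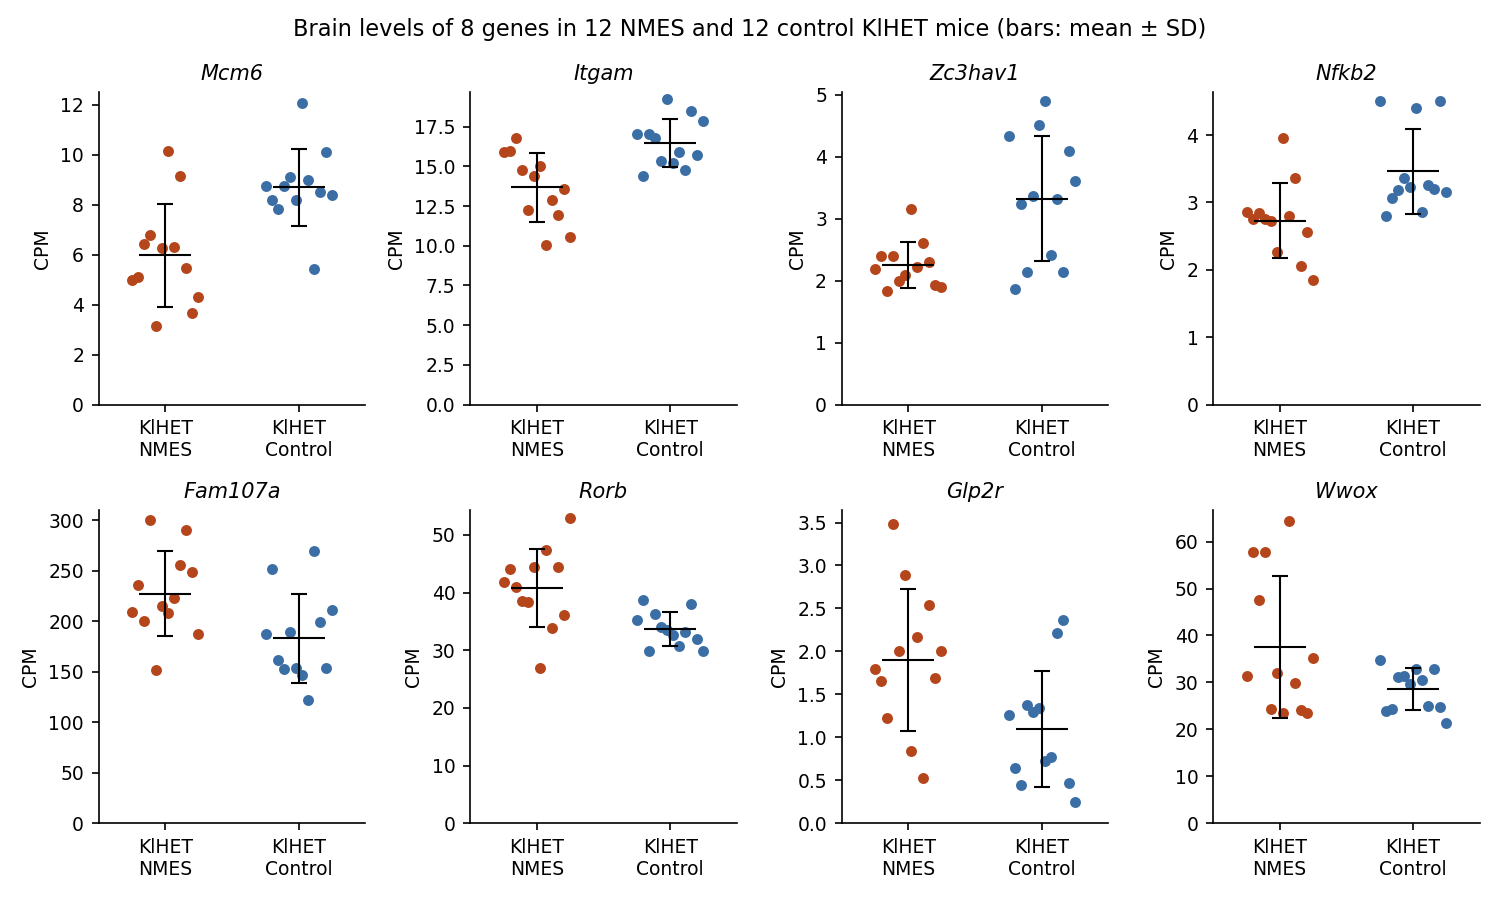
CPM (vertical axis, starting at 0) of 8 genes in 12 NMES and 12 control KlHET brains, with 1 point per mouse and a bar for mean ± SD. The upper row holds 4 genes with lower means after NMES and the lower row 4 with higher means, and in every panel the groups overlap. Wwox shows 4 NMES libraries at 47.5 to 64.5 CPM above all others.

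Further genes with small p and lower levels after NMES included immune genes. Itgam, the integrin chain CD11b of microglia and myeloid cells, had 10.0, 14.0 and 16.8 CPM in NMES brains and 14.4, 16.3 and 19.2 CPM in control brains. Its log2 fold change was -0.26 ± 0.07, with 11 of 12 NMES libraries below the control mean. Zc3hav1, an antiviral RNA-binding protein, had 1.84, 2.21 and 3.17 CPM in NMES brains and 1.86, 3.34 and 4.90 CPM in control brains (-0.42 ± 0.12, 12 of 12 below). The NMES libraries were tightly grouped, and the lowest control libraries reached into their range. Nfkb2, a subunit of the transcription factor NF-kappaB, had a log2 fold change of -0.28 ± 0.08, and Anxa1, a phospholipid-binding protein that restrains inflammation, of -0.48 ± 0.16. The rule for named genes also gave Cd151, Tmem260, Aaas, Tox4, Tvp23a and Foxd2, with log2 fold changes between -0.52 and -0.10. The adjusted p was 0.999 for all genes of this paragraph.

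The genes with the smallest p among those higher after NMES had small fold changes. Polr1g, a subunit of RNA polymerase I, had 20.8, 22.3 and 24.0 CPM in NMES brains and 18.1, 20.3 and 23.5 CPM in control brains (0.14 ± 0.04), and 12 of 12 NMES libraries lay above the control mean. Fam107a, an actin-associated protein of astrocytes and neurons induced by stress, had 152, 219 and 301 CPM in NMES brains and 122, 175 and 270 CPM in control brains (0.34 ± 0.11). Rorb, a nuclear receptor of layer 4 cortical neurons, had 26.9, 41.4 and 52.9 CPM in NMES brains and 29.8, 33.3 and 38.6 CPM in control brains (0.28 ± 0.09). The NMES brains held both the lowest and the highest of the 24 values. Glp2r, the receptor of glucagon-like peptide 2, had 0.521, 1.90 and 3.48 CPM in NMES brains and 0.252, 1.01 and 2.37 CPM in control brains (0.63 ± 0.22). Zfp131, a zinc finger protein, had 24.8, 32.8 and 41.3 CPM in NMES brains and 20.6, 27.8 and 37.5 CPM in control brains (0.26 ± 0.08). The others by the same rule were Cyp4f15, Rc3h2, Msantd2, Actl6a, Zfp563, Scrt1 and Iars1, with log2 fold changes between 0.09 and 0.25. All of these genes had an adjusted p of 0.999.

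The study singled out genes in this comparison, which were chosen on this same series and are therefore no independent evidence of direction. Its figure legends give fewer KlHET control mice than the 12 control libraries used here. The study used edgeR with a cut-off of p below 0.05 and named no adjustment for it, so the adjusted threshold used here is stricter. The 6 genes named as higher in KlHET brain after NMES all lay above 0. Of these, 5 had an unadjusted p below 0.05 and none passed after adjustment. Another 3, Pomc, Gk and Spop, were named with no direction, and all 3 lay above 0, with an unadjusted p below 0.05 for Spop. Erg, an endothelial transcription factor, had 3.22, 4.04 and 5.35 CPM in NMES brains and 1.76, 3.40 and 4.49 CPM in control brains. Its log2 fold change was 0.29 ± 0.11 (limma p = 0.0088, adjusted p = 0.999), with 10 of 12 NMES libraries above the control mean in CPM and 12 of 12 above it on the log2 scale. Cyth1, an exchange factor for ARF proteins, had a log2 fold change of 0.09 ± 0.03 and the homeobox gene Barx2 one of 0.35 ± 0.17. Pomc had 1.32, 2.57 and 183 CPM in NMES brains and 1.34, 2.50 and 16.1 CPM in control brains. Its log2 fold change was 0.36 ± 0.48 with all libraries and -0.12 without NMES replicate 1.

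Wwox, an oxidoreductase with tumour suppressor activity, was unevenly spread. NMES replicates 2, 3, 4 and 8 had 57.7, 47.5, 57.8 and 64.5 CPM, the other 8 NMES libraries had 23.5 to 35.2 CPM, and the control libraries had 21.2 to 34.8 CPM. The log2 fold change of 0.33 ± 0.14 (limma p = 0.025, adjusted p = 0.999) thus rested on 4 mice. This split was noticed after the values were seen. Predicted genes lie within Wwox, and without strand their reads cannot be told from those of Wwox. Of the 3 genes given as lower, 3 lay below 0. Cd74, the invariant chain of class II antigen presentation, had 1.69, 4.71 and 8.00 CPM in NMES brains and 2.68, 7.29 and 9.93 CPM in control brains (-0.47 ± 0.20). Col3a1, a fibrillar collagen, had 2.46, 3.96 and 6.46 CPM in NMES brains and 1.31, 5.80 and 10.9 CPM in control brains (-0.43 ± 0.19). Vwa1, a matrix protein, had a log2 fold change of -0.13 ± 0.06. Their unadjusted p were below 0.05 and none passed after adjustment.

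Another 20 genes were named for the response of WT brain alone. In KlHET brain 7 of them lay above 0 and 13 below, and 0 had an unadjusted p below 0.05. This leaves out Erg and Vwa1, which were named for both genotypes. Without control replicate 7 and NMES replicate 1, 10 of the 20 lay above 0. Avp, the peptide vasopressin, had 0.155, 0.616 and 85.6 CPM in NMES brains and 0.0557, 0.415 and 142 CPM in control brains (-0.98 ± 1.09). Its medians were close to the lowest values, and a few libraries of each group held most of its reads.

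Lists of functionally related genes were described by counts, beside 52.1% of all genes above 0 and a median log2 fold change of 0.003 over all genes. No member of any list passed the test. The members of a list were measured in the same mice, so a count of members is not a count of independent observations. Immediate early genes lay above 0 in 28 of 29 cases, with a median of 0.19. Arc, a synaptic scaffold induced by neuronal firing, had 36.4, 241 and 357 CPM in NMES brains and 36.8, 97.9 and 382 CPM in control brains (0.63 ± 0.38, limma p = 0.110). The 2 groups had almost the same range and differed in where most libraries sat within it. Npas4, a transcription factor induced by calcium influx, had 5.42, 22.0 and 35.5 CPM in NMES brains and 1.86, 14.9 and 38.9 CPM in control brains (0.68 ± 0.36, p = 0.069). Fos and Egr1 had medians of 40.6 and 374 CPM in NMES brains and of 35.6 and 231 CPM in control brains. The mean score of the list differed by 0.232 between the groups, against a pooled SD of 0.487 between libraries. Without control replicate 7 and NMES replicate 1, 24 of 29 lay above 0, with a median of 0.084.

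Clock genes lay above 0 in 18 of 19 cases, with a median of 0.084, and in 16 of 19 with a median of 0.044 without this pair of libraries. Rorb led them, followed by Npas2, Per1, Ciart and Hlf, with log2 fold changes between 0.14 and 0.17. Rorb is also on the list of cortical projection neurons and Per1 on that of immediate early genes, so these lists are not fully separate. The hour of collection is not in the labels. In the 24 KlHET mice, brain and muscle levels of 7 clock genes had Pearson r of 0.04 to 0.41 across animals, and none passed over the 7 (lowest permutation p, adjusted by Benjamini-Hochberg, 0.273 for Pearson's r and 0.209 for Spearman's rho). Per2 had the highest r (0.41, raw permutation p = 0.0463, rho 0.35), which was 0.21 without the 2 animals farthest from the median. Within the 12 NMES mice r was 0.75 for Per2 (adjusted permutation p = 0.0304) and 0.70 for Nr1d1 (0.0413), whereas within the 12 control mice it was 0.06 and 0.19. The difference between these correlations was not tested.

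Genes of immunity lay mostly below 0. For the interferon response it was 22 of 23, with a median of -0.17, and Ifit3b, an interferon-induced antiviral protein, had 3.10, 3.79 and 6.51 CPM in NMES brains and 3.68, 4.75 and 8.95 CPM in control brains (-0.24 ± 0.12). For antigen presentation it was 17 of 18, with a median of -0.13. H2-Aa, a class II chain, had 0.336, 1.62 and 2.95 CPM in NMES brains and 0.526, 2.64 and 3.40 CPM in control brains (-0.58 ± 0.22), and the class I components B2m and H2-K1 had log2 fold changes of -0.12 and -0.13. Class II transcripts were thus at a few CPM or less in both groups. Among the markers of microglia, 16 of 20 lay below 0, with a median of -0.092 (18 of 20 without the pair). Trem2, a lipid-sensing receptor of microglia, had 7.05, 9.39 and 10.6 CPM in NMES brains and 8.67, 10.1 and 12.4 CPM in control brains (-0.17 ± 0.07). Cx3cr1, P2ry12, Tmem119 and Csf1r, which define microglia, had log2 fold changes of -0.04, -0.09, -0.10 and -0.08. The mean score differed by -0.171 (interferon), -0.188 (antigen presentation) and -0.079 (microglia) between the groups. The pooled SDs between libraries were 0.301, 0.234 and 0.108. In a bulk sample, fewer cells of a type and less RNA per cell cannot be told apart. Among inflammatory genes, 12 of 17 measured lay below 0 (10 without the pair), and Nlrp3, the sensor of an inflammasome, had a log2 fold change of -0.30 ± 0.12.

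Meningeal and matrix genes lay mostly below 0. All 16 markers of leptomeninges and fibroblasts lay below 0, with a median of -0.23, and 3 of them had an unadjusted p below 0.05. Dcn, the small proteoglycan decorin, had 4.93, 9.50 and 14.6 CPM in NMES brains and 5.21, 12.5 and 33.6 CPM in control brains (-0.52 ± 0.21). Of 45 genes of extracellular matrix, 38 lay below 0, with a median of -0.12. Both lists hold Dcn, Col3a1 and other collagens, so their counts are not separate. The summed CPM of the meningeal markers ran from 511 to 1304 in NMES brains and from 540 to 1500 in control brains, and the score differed by -0.245 against a pooled SD of 0.387. The meningeal membrane that stayed on each piece was not recorded in the labels, and its part in the matrix values was not tested.

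**Figure D4:**
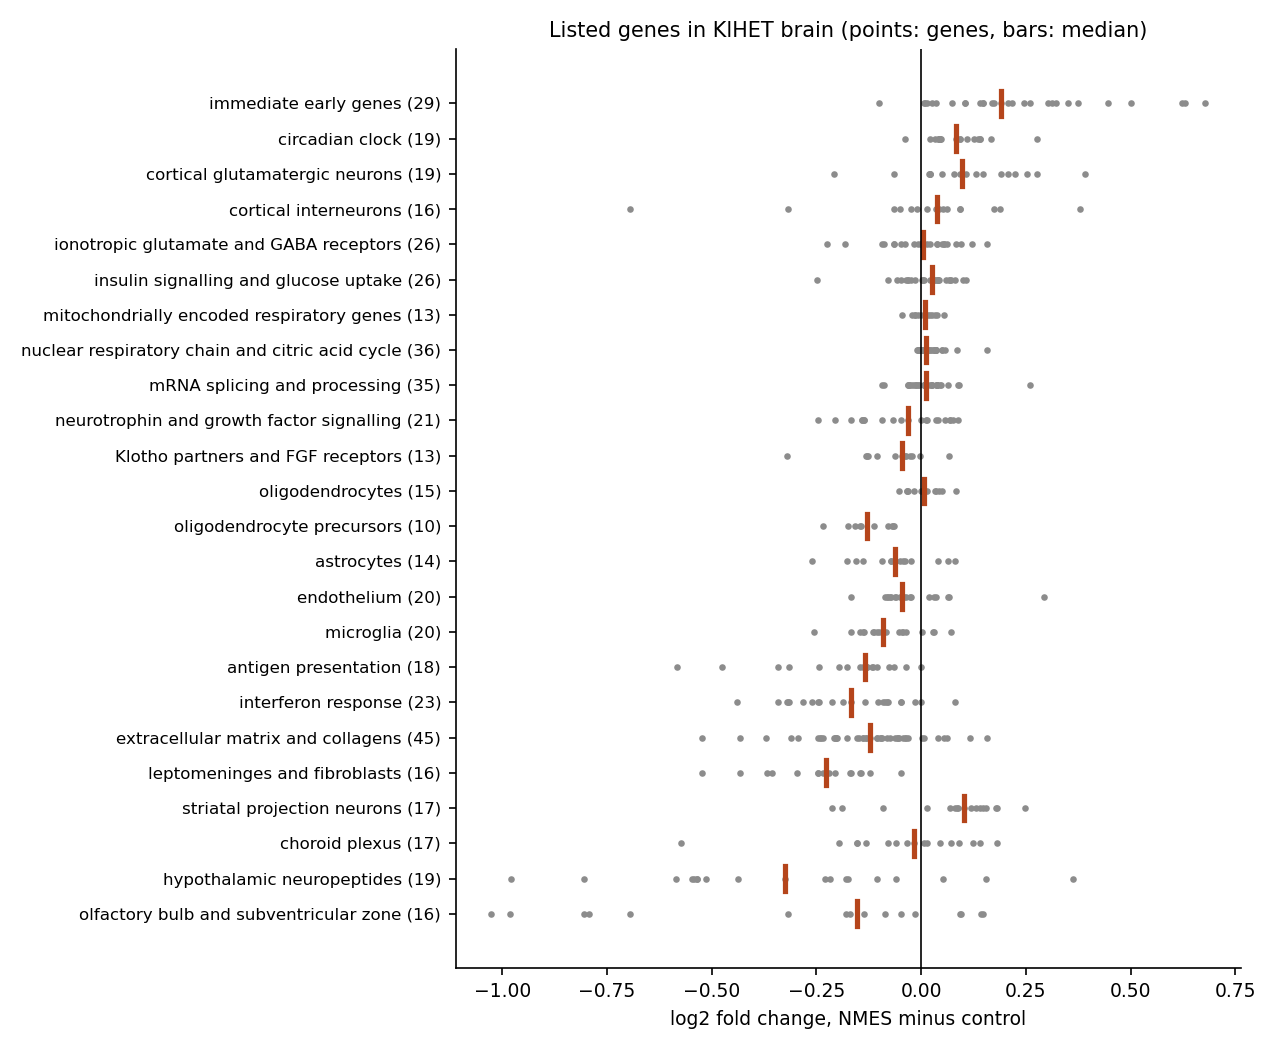
Log2 fold change (NMES minus control, horizontal axis) of every measured gene of 24 lists, with 1 point per gene, the median as a bar and the number of measured genes in brackets. Immediate early and clock genes lie mostly right of 0 and meningeal, matrix, interferon and antigen presentation genes mostly left of it, and no point passed the test.

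Among glial lists of neural origin, that of oligodendrocyte precursors had the lowest median. All 10 of its markers lay below 0, with a median of -0.13, and the score differed by -0.125 against a pooled SD of 0.159. Without control replicate 7 and NMES replicate 1, 8 of 10 lay below 0, with a median of -0.069. Gpr17, a receptor of differentiating precursors, had 40.3, 51.6 and 67.3 CPM in NMES brains and 48.4, 58.3 and 69.5 CPM in control brains (-0.17 ± 0.07), and 11 of 12 NMES libraries lay below the control mean. Markers of mature oligodendrocytes were split, 9 above and 6 below 0, with a median of 0.007, and 5 above and 10 below 0 with scaling by total counts. Without the pair all 15 lay above 0, with a median of 0.141. Of the astrocyte markers 11 of 14 lay below 0, with a median of -0.061 (-0.026 without the pair), among them the water channel Aqp4 (-0.26 ± 0.12) and the gap junction gene Gja1 (-0.15 ± 0.07). Endothelial markers had 14 of 20 below 0, with a median of -0.045, and Erg was the 1 member with an unadjusted p below 0.05.

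Energy metabolism was nearly level. Of the mitochondrially encoded genes 8 lay above and 5 below 0, with a median of 0.009, and 5 above and 8 below 0 with scaling by total counts. The nuclear respiratory chain and citric acid cycle had 30 of 36 above 0, with a median of 0.013, 16 of 36 with scaling by total counts, and 32 of 36 with a median of 0.027 without the pair. In the insulin and glucose uptake list 17 of 26 lay above 0, with a median of 0.026, and 9 of 26 without control replicate 7 and NMES replicate 1. In that list Pik3ca, the catalytic subunit of a lipid kinase, had a log2 fold change of 0.08 ± 0.04. The 20 genes of glycolysis had a median of 0.020, and of 0.007 without the pair. Splicing genes had a median of 0.011 and glutamate and GABA receptors one of 0.005, and both medians were below 0 with scaling by total counts, at -0.006 and -0.012. Of the receptors 16 of 26 lay above 0, and 8 of 26 without the pair. Over all genes, 7472 of 15400 lay above 0 without the pair.

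Lists for brain regions moved when control replicate 7 and NMES replicate 1 were left out together. Hypothalamic genes lay below 0 in 16 of 19 cases, with a median of -0.32, and in 9 of 19 with a median of 0.014 without control replicate 7 and NMES replicate 1. Striatal genes lay above 0 in 14 of 17 cases, with a median of 0.10, and in 3 of 17 with a median of -0.073 without this pair. Cortical projection neurons had 17 of 19 above 0, with a median of 0.098, and 8 of 19 with a median of -0.004 without it. Cortical interneurons had 10 of 16 above 0, and 5 of 16 without it. Choroid plexus genes had 8 of 17 above 0, and 16 of 17 with a median of 0.26 without it. Olfactory bulb genes had 12 of 16 below 0, with a median of -0.15, and 14 of 16 with a median of -0.34 without the pair, but 11 of 16 above 0 with a median of 0.091 when 4 region scores entered the model. The meningeal, interferon, antigen presentation and matrix counts without the pair were 16 of 16, 20 of 23, 18 of 18 and 39 of 45 below 0. With 4 region scores in the model these counts were 13 of 16, 18 of 23, 17 of 18 and 33 of 45. Their medians in that model were -0.101, -0.088, -0.110 and -0.033, all nearer to 0 than in the main fit.

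The response of KlHET brain was then compared with that of WT brain in the same model. No gene passed (0 of 15400, 0% called), the smallest adjusted p was 0.999, and 454 genes had an unadjusted p below 0.05. With 6 WT mice per group the estimates were coarser, with a median standard error of 0.135, and the interval stayed within 2-fold for 94.8% of genes. Mcm6 had 6.71, 7.36 and 8.69 CPM in WT NMES brains and 5.77, 7.85 and 8.99 CPM in WT control brains, with a difference of responses of -0.49 ± 0.20. Among the genes with the smallest p were Malsu1, a factor of the mitochondrial ribosome (0.57 ± 0.15), Bax, a pore-forming protein of apoptosis (0.32 ± 0.09), Polr2l, a subunit shared by RNA polymerases (0.45 ± 0.13), Atrip, a partner of the DNA damage kinase ATR (0.27 ± 0.08), and the growth factor Fgf17 (-0.81 ± 0.24). Their KlHET response alone was 0.09 for Malsu1, 0.10 for Bax, 0.18 for Polr2l, 0.06 for Atrip and -0.11 for Fgf17. Fgf17 was near the floor, at 0.236 to 1.54 CPM in the KlHET NMES brains. The animal identifiers of KlHET and WT mice belong to different series, and cohort and genotype cannot be told apart.

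Because brain and muscle came from the same mice, the lead genes were set against the muscle of the same animal. This comparison was chosen after the brain values were seen. Of 20 lead genes measured in both tissues, 2 correlated across the 24 mice past an adjusted p of 0.05 by Pearson's r and 3 by Spearman's rho. Mcm6 had a Pearson r of 0.705 (permutation p = 0.00014, adjusted over the 20 genes 0.0028), a Spearman rho of 0.699 (adjusted permutation p = 0.0054), and r = 0.742 without the 2 mice farthest from the median. Within the NMES mice r was 0.565 (adjusted permutation p = 0.235) and within the control mice 0.884 (adjusted permutation p = 0.0228, and 0.391 for Spearman's rho). Control replicate 9 was the lowest control mouse in both tissues, at 5.42 CPM in brain and 1.94 CPM in muscle. The next lowest control values were 7.83 and 3.86 CPM, and r within the control mice without replicate 9 was not computed. Across the 24 mice, low Mcm6 in the brain thus tended to go with low Mcm6 in muscle. The difference between NMES and control in muscle was -0.31 ± 0.14 (limma adjusted p = 0.302). Zfp131 had r = 0.615 (adjusted permutation p = 0.0145), rho = 0.574 (adjusted 0.0299) and r = 0.611 without 2 mice, with 0.582 within the NMES mice and 0.693 within the control mice. For Zfp131 neither group alone passed. Tox4, a DNA-binding protein, had rho = 0.570 (adjusted permutation p = 0.0299) but r = 0.528 (adjusted permutation p = 0.0537), with r = 0.457 without 2 mice.

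**Figure D5:**
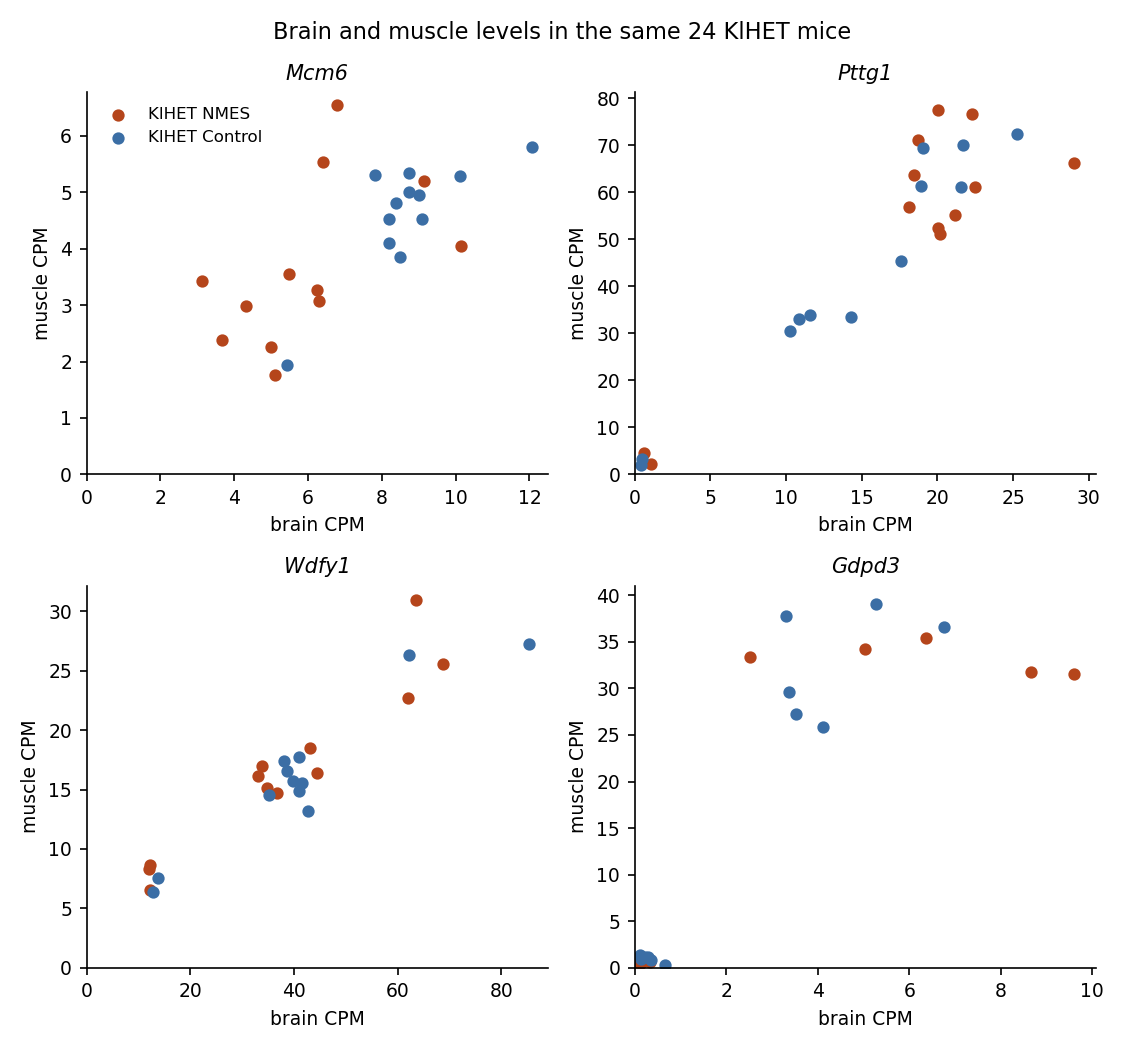
CPM in brain (horizontal axis) against CPM in muscle (vertical axis) of the same 24 KlHET mice for 4 genes, with 1 point per mouse coloured by treatment. Mcm6 rises along a diagonal, and Pttg1, Wdfy1 and Gdpd3 fall into separate levels that hold the same mice in both tissues and mice of both treatments.

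Some genes took separate levels in the 24 mice, with the same mice low in both organs. Over 12737 genes measured in both tissues the median r was 0.049, and 52 (0.408%) had r over 0.8, of which 46 were autosomal. Of the 52, 4 (7.69%) had an unadjusted p below 0.05 between NMES and control brains, against 2.04% of all genes tested. Pttg1, the separase inhibitor securin, was at 0.410 to 1.08 CPM in the brains of 4 mice, 2 NMES and 2 control, and at 10.3 to 29.1 CPM in the other 20. The same 4 mice had 2.00 to 4.58 CPM in muscle, against 30.5 to 77.6 CPM. Wdfy1, an endosomal adaptor, was at 12.1 to 13.7 CPM in the brains of 5 mice, 3 NMES and 2 control, and at 33.1 to 85.4 CPM in the others. Gdpd3, a lysophospholipase, was at 0.0484 to 0.668 CPM in the brains of 13 mice, 7 NMES and 6 control, and at 2.53 to 9.61 CPM in the other 11. For these 3 genes the low mice were spread over both treatments.

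Gm8210, known only by a predicted symbol and singled out after its values were seen, was spread unevenly between the treatments. It was at 21.3 to 26.0 CPM in the brains of 8 NMES and 3 control mice, and at 1.80 to 3.64 CPM in those of 4 NMES and 9 control mice. Muscle put the same mice at the same level, at 24.3 to 44.3 CPM and at 4.53 to 8.84 CPM. Its log2 fold change in brain, 1.18 ± 0.48 (limma p = 0.0201, adjusted p = 0.999), was the highest of all 15400 genes. The mice came from a mixed background, and whether these levels follow inherited differences was not tested.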

How the data were processed

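Brain and muscle RNA had been sequenced as paired-end total RNA libraries (NovaSeq X Plus). The submitters' processing notes name Rsubread 2.16.1, mm10, org.Mm.eg.db 3.19.1 and edgeR 4.0.16. The authors deposited CPM per gene, 15431 genes in brain and 13543 in muscle. A mean log2 CPM column of the authors belonged to no sample and was not used, and 0 columns of sample values lacked a sample. The sources used here do not state whether counting used strand. All values (100%, relative tolerance 1e-06) were whole multiples of 1 read, from which the reads and the depth of each library were recovered.

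As planned for CPM, the test was limma 3.58.1 in R 4.3.3 (trend, robust, 2-sided) on log2(TMM-scaled CPM + 0.5), which understates changes of low genes. It fitted 4 group means to 36 brain libraries, whose TMM factors were 0.962 to 1.07. The filter of edgeR 4.0.16 (minimum count 10) kept 15400 genes, over which p-values were adjusted by Benjamini-Hochberg with a threshold of 0.05. A list score was the mean centred log2 level of its genes. The comparison, the gene lists and the rules were chosen with earlier results of these data known.

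The rule named 12 genes per direction by p (mean log2 CPM above 0, no predicted symbols), Kl, the genes the study named, the leading members of each list, the 10 most variable genes and the 6 genes with the smallest p for the difference of responses, 198 in all, of which the text gives leading ones, and a few results are left out. Correlations used 100000 permutations in scipy 1.17.1 under Python 3.11.15, and figures were drawn with matplotlib 3.10.9. Alternatives were other scalings, filters, pseudocounts and covariates, edgeR's quasi-likelihood test, DESeq2 1.42.0 and voom on recovered reads, only KlHET libraries, and leaving out libraries. The model fit was also run on simulated counts with known fold changes, drawn separately for each gene and library. They held no mixture of regions, so they cannot show how the fit behaves with the mixture seen here.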

Additional observations from a re-analysis of the deposited data

Results flagged for a closer look

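Malsu1 and Polr2l, which were among the genes with the smallest p for the difference between the KlHET and WT responses, each had 1 WT control library far from the other 5. Malsu1 was at 14.2 CPM in WT control replicate 1, whereas the others lay at 7.82 to 8.29 CPM, and the gap took 0.926 of the range of the group. Polr2l was at 24.0 CPM in the same library, whereas the others lay at 11.9 to 15.8 CPM, a gap of 0.679 of the range. Both were found by testing the extreme library of 14 groups, with a limit that about 1 in 20 independent groups exceeds by chance. That rate does not apply here. Both genes had been picked by a small p in a comparison that used these same WT libraries, which favours an extreme library. Both values also came from the same library, WT control replicate 1, so they are not separate findings. Without this library the differences of responses were 0.44 for Malsu1, 0.33 for Polr2l and 0.26 for Bax, against 0.57, 0.45 and 0.32 with it.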

How the results depend on the processing

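The count of called genes between NMES and control in KlHET brain was 0 in 17 of 18 settings and in 36 of 36 fits without 1 library. The exception was voom with quality weights, which called 1 gene, Mcm6. The number of genes at an unadjusted p below 0.05 ran from 261 (only KlHET libraries in the fit) to 611 (voom) over the settings, and from 247 (without control replicate 12) to 550 (without NMES replicate 9) over the fits without 1 library. The difference between the KlHET and WT responses had 0 called genes in 17 of 17 settings and 36 of 36 fits without 1 library. Of the 198 named genes, 139 kept their direction in every alternative. Scaling by total counts moved the median log2 fold change of all genes to -0.013, with 6468 above and 8932 below 0, against 8026 and 7374. Clock genes past the adjusted p of Pearson's r across both tissues numbered 0 in all 24 mice, 2 within the 12 NMES mice and 0 within the 12 control mice. Lead genes past it by Pearson's r numbered 2 in all mice, 0 within the NMES mice and 1 within the control mice, and by Spearman's rho 3, 0 and 0. The settings with 4 region scores, without control replicate 7 and NMES replicate 1, and within treatment groups for the lead genes were chosen after seeing the data. No paired analysis was possible because the replicate numbers only follow the order of the samples and tie no NMES mouse to a control mouse.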
